A study of Homo sapiens with 9 samples.

Results

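The nuclear genes for the proteins of the mitochondrial ribosome were followed in 3 human liver cancer cell lines given THZ531, a covalent inhibitor of the transcriptional kinases CDK12 and CDK13. They were taken as the protein-coding rows of the count table whose symbol is MRPL or MRPS followed by a number and at most 1 letter. The rule gave 79 rows of 32990 in the table, with 77 distinct symbols, and 76 of these rows had enough counts to be tested, out of 15479 tested genes. Hep3B, Huh7 and SNU449 cells were each sequenced untreated and with 250 or 500 nM THZ531. There is 1 poly(A) RNA library for each line and dose, so each dose has n = 3 lines, and a line has 1 control and 2 treated libraries. How long cells were treated is labelled in conflicting ways: 48 h throughout in the characteristics, but in the protocol 48 h for SNU449 and 24 h for the other lines. Separate cultures within a line are not stated, so p-values measure only the spread between these libraries.

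The mitochondrial ribosome translates the mRNAs of the mitochondrial genome, all of which code for subunits of the respiratory chain and the ATP synthase. Its rRNAs come from the mitochondrial genome, whereas its proteins are made in the cytoplasm from nuclear genes and imported. Part of these proteins have a bacterial homologue and part are specific to mitochondria. The subunit in a symbol is not always the place of the protein: MRPS18A and MRPS30 sit in the large subunit, and MRPS36 belongs to the 2-oxoglutarate dehydrogenase complex and not to the ribosome. Placed by structure, the tested rows were 29 large subunit proteins with a bacterial homologue, 21 large subunit proteins specific to mitochondria, 15 and 10 such proteins of the small subunit, and MRPS36.

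Total counts ran from 5701981 to 20657610 per library, lowest in Huh7 at 500 nM. The 7 hepatocyte markers summed to 19860 to 86450 CPM (TMM-scaled counts relative to library size) in Hep3B and Huh7 and to 3.97 to 5.74 in SNU449, and the 5 mesenchymal markers, all detected in each library, to 2531 to 19770. With dose the hepatocyte sum went from 26600 to 30190 and 46460 in Hep3B and from 19860 to 39970 and 86450 in Huh7, and the mesenchymal sum from 2531 to 4602 and 5671 and from 7674 to 10050 and 19770. Within the hepatocyte list APOB went the other way, from 5536 to 1299 and 1520 CPM in Hep3B (log2 fold change -1.97, adjusted p = 0.0115) and from 2582 to 954.5 and 1620 CPM in Huh7. Within the mesenchymal list ZEB1 went the other way in Huh7, from 28.3 to 18.1 and 15.1 CPM, while the other 4 were higher at both doses. Most of the Huh7 mesenchymal sum was FN1, at 6810, 8606 and 17120 CPM. The 4 immune markers summed to 70.95 to 611 CPM in Hep3B and Huh7, nearly all of it LYZ, and to 0.940 to 1.30 in SNU449, mostly PTPRC. PTPRC had 0 to 21 counts in a library, CD68 0 to 5 and CD3E 0 to 2. Their part in the results was not tested. SNU449 stood apart in its response: 0 of 15479 genes passed the test within this line in edgeR, and 68 (0.439%) had an unadjusted p under 0.05. That test takes 1 spread per gene from the 3 lines together. Over all tested genes the log2 ratios had a distance between quartiles of 0.211 and 0.283 in SNU449, against 1.085 to 1.758 in the other lines. The doses of a line are taken in it as replicates of treatment. The test is therefore strict for SNU449, and 0 passing does not exclude small responses there. By the same sharing of the spread it may be lenient for Hep3B and Huh7. Standard errors and adjusted p-values within those lines may then be too small. As SNU449 stood apart, values are given by line, and for the lines combined also without SNU449. CPM are counts relative to library totals scaled with TMM factors, a scaling that sets the bulk of genes to no change. They are relative to the RNA sampled, and fewer cells and less RNA per cell cannot be told apart.

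The genes made up a smaller share of all counts in the treated than in the control libraries of Hep3B and Huh7, and a similar one in SNU449. In Hep3B the share was 0.393% in the control (95% interval 0.390 to 0.396, Clopper-Pearson), 0.282% at 250 nM (0.280 to 0.285) and 0.267% at 500 nM (0.264 to 0.270). The Huh7 shares were 0.352% (0.349 to 0.355), 0.299% (0.295 to 0.302) and 0.243% (0.239 to 0.247). The SNU449 shares were 0.381%, 0.375% and 0.381%. The 4 treated libraries of Hep3B and Huh7 lay below every control, and those of SNU449 lay within the range of the controls. These intervals cover counting error only, and a share has no replicate within a line. In the same libraries the share of counts from the mitochondrial genome went from 4.28% to 10.6% and 12.4% in Hep3B and from 3.85% to 8.14% and 13.1% in Huh7, and lay between 4.32% and 4.47% in SNU449. After TMM scaling the summed level of the genes was 3311, 3175 and 3386 CPM in Hep3B, 2804, 3334 and 3730 CPM in Huh7, and 3142 to 3274 CPM in SNU449. In Huh7 at 500 nM MRPL34, MRPL41 and MRPL51 alone stood at 277, 275 and 263 CPM of that sum, while 44 of the 76 genes were below their control. In Hep3B at 250 nM the sum was itself lower than in the control, and 50 of the 76 genes were.

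**Figure D1:**
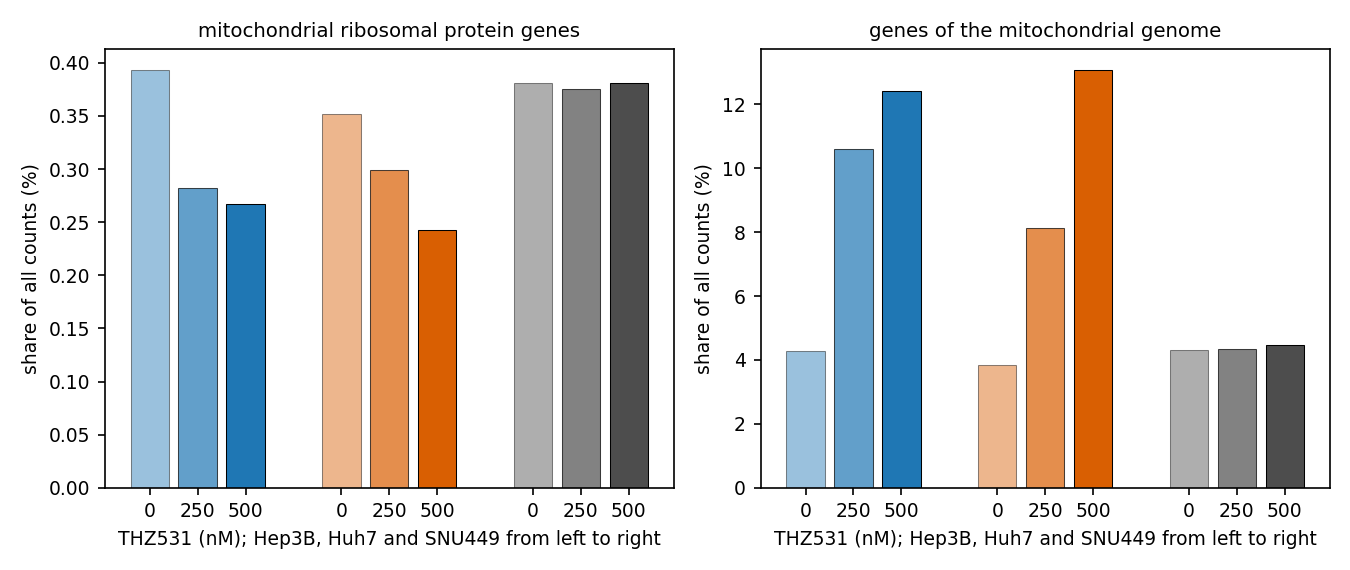
Share of all counts (%, y axis) in each library by THZ531 dose (nM, x axis), for the mitochondrial ribosomal protein genes (left) and for the genes of the mitochondrial genome (right), 1 bar per library and no error bar. The ribosomal protein share drops to 0.267% in Hep3B and 0.243% in Huh7 at 500 nM while the share of the mitochondrial genome climbs to 12.4% and 13.1%, and the SNU449 bars are level.

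Before treatment, the genes were moderately expressed in each line. Per kilobase of exon, the 76 genes had a median level of 14.9 CPM (Hep3B), 12.1 CPM (Huh7) and 14.3 CPM (SNU449). The highest mean levels per kilobase over the 3 controls were those of MRPS34, of the small subunit (56.0 ± 5.8, SD, n = 3), MRPL51, of the large subunit (54.2 ± 13.2), and MRPL15, of the large subunit (45.4 ± 42.0). These SDs are spreads between lines, and the order differed by line. MRPL15 was below the other 2 in Hep3B (18.1) and Huh7 (24.2) and above them in SNU449 (93.8). The lowest among tested genes were MRPL53, MRPL46 and MRPL38, the last 2 at 0.895 ± 0.153 and 0.889 ± 0.133. MRPL15 was the gene that set a line apart most, with 21.6 CPM in Hep3B, 28.8 in Huh7 and 111.7 in SNU449. MRPL11 was the reverse, with 144.3, 144.8 and 40.2 CPM, and was singled out after its values were seen. Between control libraries 10 of 76 genes (13.2%) differed by at least 2-fold between Huh7 and Hep3B, 9 of them lower in Huh7, against 30.3% of all tested genes. The shares were 11.8% against 39.7% for SNU449 over Hep3B and 19.7% against 41.7% for SNU449 over Huh7. These are ratios of single libraries and have no test.

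Within Hep3B and Huh7 some of the genes rose and others fell under THZ531, and none passed within SNU449. In Hep3B 6 of 76 rose and 3 fell (edgeR quasi-likelihood test, Benjamini-Hochberg adjusted p under 0.05 over all genes), where 9.82% of all tested genes rose and 6.72% fell. In Huh7 9 rose and 5 fell, where 13.3% of all genes rose and 6.03% fell. The shares of these genes that passed, 9 and 14 of 76, are thus near or below the background of 16.5% and 19.3%. In SNU449 0 of 76 passed in edgeR, 0 had an unadjusted p under 0.05, and DESeq2 called 0. At an unadjusted p under 0.05 stood 22 of the 76 in Hep3B and 25 in Huh7, where 33.7% and 34.6% of all genes did. Over the 76 genes the log2 fold change had a median of -0.15 (Hep3B), -0.10 (Huh7) and 0.01 (SNU449), beside -0.03, -0.03 and 0.00 over all tested genes. Without the Huh7 library at 500 nM the Hep3B count, whose libraries stay the same, went to 22, with 8 higher and 14 lower. The share of all genes that passed within Hep3B in that fit was not determined. Each line rests on 1 control library, and the standard errors do not include how far that library may lie from others of its kind. Under total-count scaling, which shifts the median of all genes by -0.50 in Hep3B and -0.68 in Huh7, the split is 1 higher and 11 lower in Hep3B and 4 higher and 20 lower in Huh7, so directions hold relative to the bulk of genes. What share of all genes passed within a line under this scaling was not determined.

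**Figure D2:**
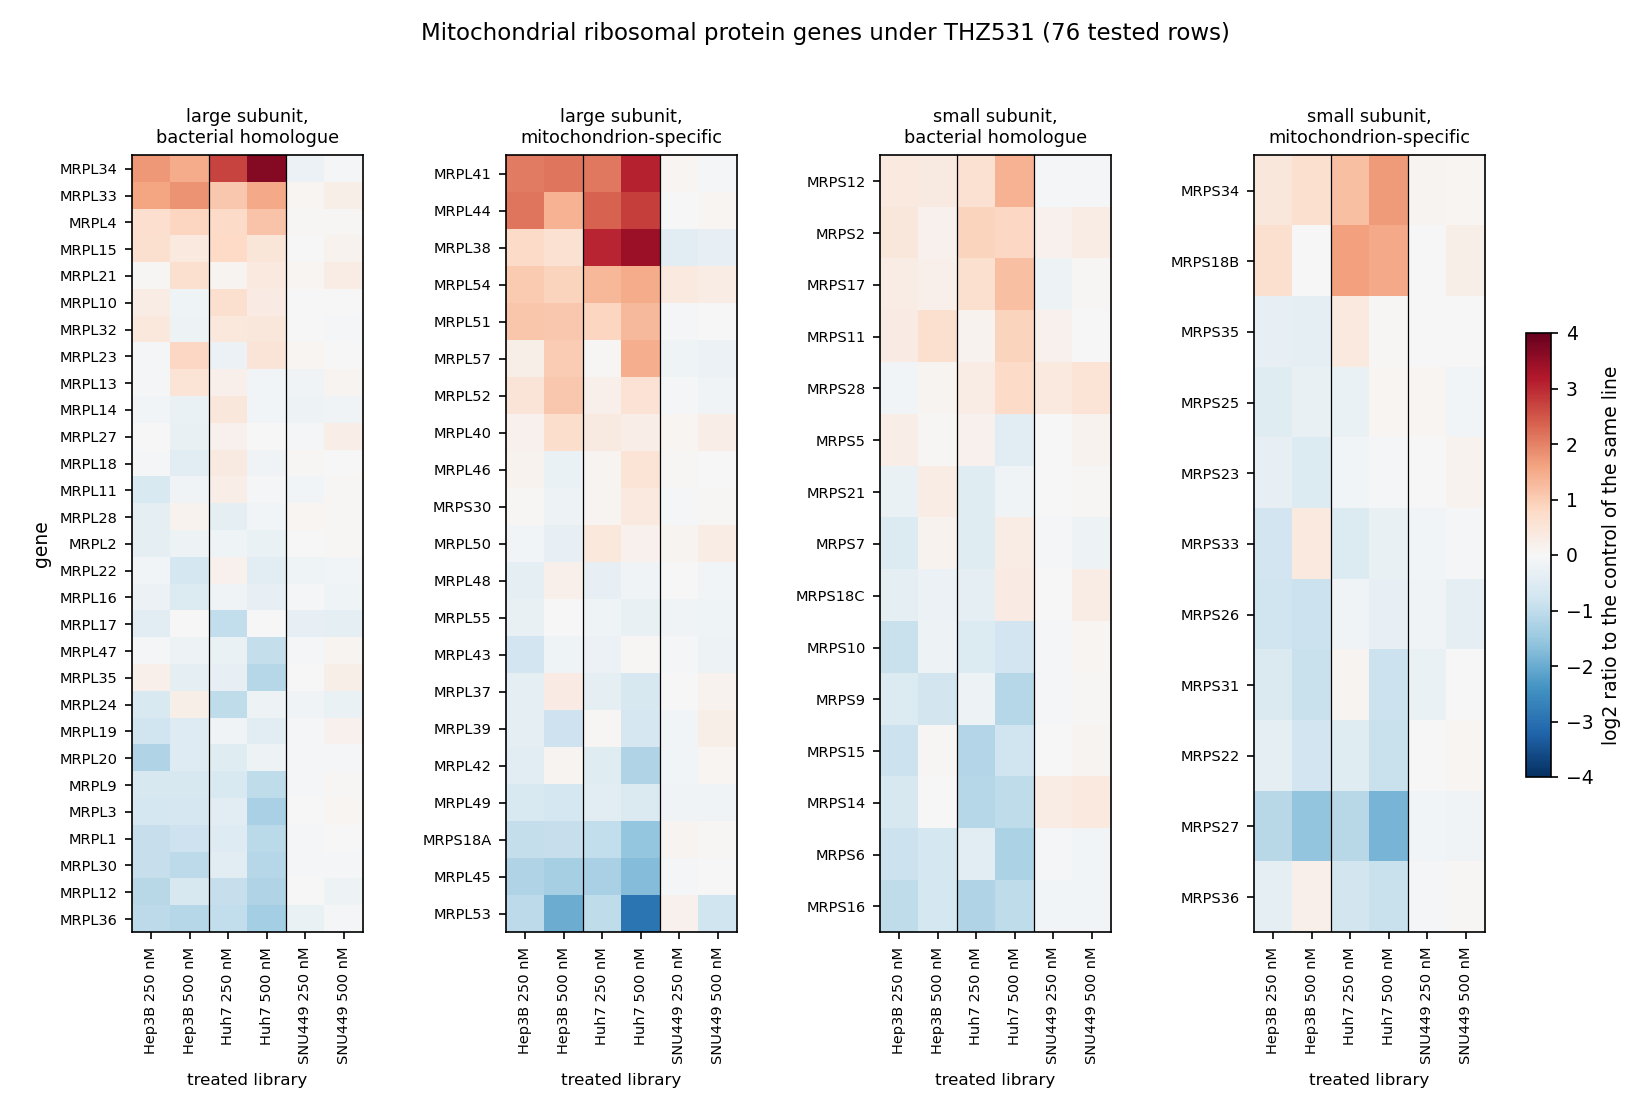
Log2 ratio of each treated library to the control of its line (colour, TMM-scaled counts with a prior of 2) for the 76 tested rows, in 4 structural groups, with MRPS36 as the last row of the right panel. Rows are ordered by the mean of the 4 Hep3B and Huh7 ratios, and the SNU449 columns, which span -0.79 to 0.54, are pale throughout.

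All 9 genes that passed in Hep3B also passed in Huh7 and in the same direction. Over all tested genes 1112 of the 1520 that rose in Hep3B and 404 of the 1040 that fell did so in Huh7 too. Of the large subunit proteins with a bacterial homologue, MRPL34 and MRPL33 (homologues of bacterial L34 and L33) rose and MRPL36 (the homologue of L36) fell. MRPL41, MRPL44, MRPL51 and MRPL54, specific to the mitochondrial large subunit, rose, and MRPL45 fell. Of the small subunit MRPS27, a protein with pentatricopeptide repeats, fell. The other 5 genes passed in Huh7: MRPL38, MRPS18B and MRPS34 rose and MRPS18A and MRPS16 fell. Whether these 5 differ between the lines was tested: for Huh7 minus Hep3B 0 of 76 passed in edgeR, where 0.00646% of all genes did, and 3 of the 76 had an unadjusted p under 0.05, beside 6.64% of all genes. Over the 76 genes the 2 lines gave the same sign for 65 (85.5%, beside 75.3% of all tested genes), with Pearson's r = 0.86 and Spearman's rho = 0.82 (0.72 and 0.69 over all genes). The 2 lines have separate controls. These correlations are across genes, which are not independent replicates, and describe the pattern.

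**Figure D3:**
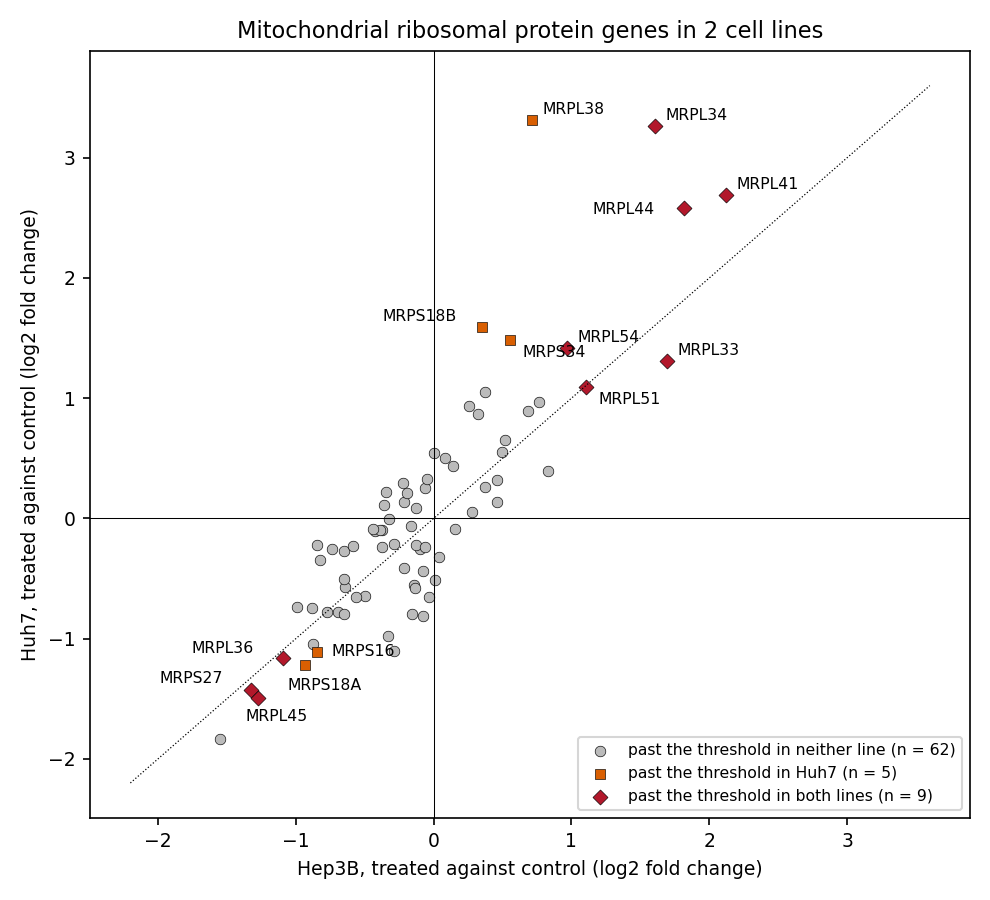
Log2 fold change of treated against control in Hep3B (x axis) and Huh7 (y axis) for the 76 tested genes, 1 point each, with the dotted line marking equal responses. The 9 genes past the threshold in both lines lie in the upper right and lower left, and MRPL38 lies far above the line.

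MRPL41 had the largest rise in Hep3B. It lies on chromosome 9 from 137551199 to 137552555 on the plus strand (GRCh38, ENSG00000182154). Its level was 17.8, 76.3 and 78.2 CPM at 0, 250 and 500 nM in Hep3B, 32.1, 139.7 and 275 CPM in Huh7, and 20.7, 22.1 and 19.9 CPM in SNU449. All 4 treated libraries of Hep3B and Huh7 lay above every control, and the SNU449 libraries lay among the controls. The log2 fold change was 2.12 ± 0.43 (SE, adjusted p = 0.00925) in Hep3B and 2.69 ± 0.44 (adjusted p = 0.00328) in Huh7.

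MRPL44, a protein with an RNase III fold whose mutation causes hypertrophic cardiomyopathy, lies on chromosome 2 from 223957404 to 223967714. It stood at 36.8, 164 and 95.8 CPM in Hep3B, 33.2, 171.5 and 227 CPM in Huh7, and 35.9, 36.6 and 37.9 CPM in SNU449. The 3 controls were close together, the 4 treated libraries of Hep3B and Huh7 were all higher, and in Hep3B the lower dose had the higher level. On the log2 scale Hep3B had a rise of 1.82 ± 0.41 (adjusted p = 0.0134) and Huh7 one of 2.59 ± 0.43 (adjusted p = 0.00327).

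MRPL34 lies on chromosome 19 from 17292609 to 17306843, and 223 of its exonic bases are shared with ABHD8 on the opposite strand. Its level was 37.2, 123 and 104 CPM in Hep3B, 21.8, 142 and 277 CPM in Huh7, and 24.9, 21.2 and 23.6 CPM in SNU449. It was the most abundant of the genes in Huh7 at 500 nM, and all treated libraries of Hep3B and Huh7 were above all controls. The rise was 1.61 ± 0.42 for Hep3B (adjusted p = 0.0245) and 3.26 ± 0.47 for Huh7 (adjusted p = 0.00225). The counts of ABHD8 went the other way, with log2 ratios of -0.67 and -0.69 in Hep3B and -0.78 and -0.71 in Huh7.

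MRPL38, of the large subunit, was among the least expressed per length and showed the largest rise in Huh7. Its counts were 89, 75 and 51 in Hep3B, 49, 181 and 114 in Huh7 and 57, 39 and 49 in SNU449, which is 3.63, 6.33 and 5.59 CPM, 2.71, 23.6 and 30.7 CPM, and 3.44, 2.54 and 2.71 CPM. Only the treated Huh7 libraries were above 10 CPM. Of its 3663 exonic bases 1373 are shared with RP11-552F3.12 on the same strand, which bears on its level per length. The log2 fold change was 3.31 ± 0.41 in Huh7 (adjusted p = 0.00156) and 0.72 ± 0.37 in Hep3B (adjusted p = 0.194).

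MRPL33, MRPL51 and MRPL54 also rose in both lines. MRPL33 was at 18.1, 54.0 and 63.2 CPM in Hep3B and 22.4, 47.4 and 64.1 CPM in Huh7, and rose by 1.69 ± 0.34 (adjusted p = 0.00905) and 1.31 ± 0.34 (adjusted p = 0.0213). It shares 324 exonic bases with BRE on the same strand. MRPL51 rose by 1.10 ± 0.34 (Hep3B, adjusted p = 0.0451) and 1.09 ± 0.34 (Huh7, adjusted p = 0.0425), from 72.4 and 107.6 CPM in the controls to between 154 and 263 CPM. MRPL54 rose by 0.97 ± 0.31 (adjusted p = 0.0493) and 1.42 ± 0.32 (adjusted p = 0.0123). In each of these genes the treated libraries of Hep3B and Huh7 were above all 3 controls. In Huh7, MRPS34, which the small subunit needs for its stability, rose by 1.48 ± 0.35 (adjusted p = 0.0153), and MRPS18B by 1.59 ± 0.37 (adjusted p = 0.0146).

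Among the genes that fell, MRPS27 had the clearest separation. It lies on chromosome 5 from 72219409 to 72320646 on the minus strand (ENSG00000113048), one of the longer spans of the group. Its level was 75.2, 35.0 and 24.9 CPM in Hep3B, 55.8, 25.6 and 15.4 CPM in Huh7, and 113.2, 105.7 and 101.9 CPM in SNU449. The treated libraries of Hep3B and Huh7 lay below every control, and each step of dose was lower in both lines. The fall in Hep3B was -1.32 ± 0.35 (adjusted p = 0.0250), and that in Huh7 was -1.42 ± 0.36 (adjusted p = 0.0187).

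MRPL45, which sits at the exit of the peptide tunnel and anchors the ribosome to the inner membrane, lies on chromosome 17 from 38297023 to 38323218. It went from 73.0 to 31.3 and 28.9 CPM in Hep3B and from 31.6 to 12.7 and 9.43 CPM in Huh7, and stood at 60.0, 57.5 and 59.8 CPM in SNU449. The treated Hep3B libraries were just below the Huh7 control, the lowest of the controls. It fell by 1.28 ± 0.29 (adjusted p = 0.0152) and 1.50 ± 0.31 (adjusted p = 0.00901). MRPL36 fell by 1.09 ± 0.31 (Hep3B, adjusted p = 0.0322) and 1.16 ± 0.35 (Huh7, adjusted p = 0.0399). In DESeq2 MRPL36 passed in neither line (adjusted p = 0.0996 and 0.0764), and its treated Hep3B libraries, at 12.6 and 11.7 CPM, were above the Huh7 control at 9.22 CPM.

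In Huh7, MRPS18A fell by 1.22 ± 0.32 (adjusted p = 0.0233) and MRPS16, the homologue of bacterial S16, by 1.11 ± 0.31 (adjusted p = 0.0282). The 3 MRPS18 genes descend from the gene for bacterial S18, but only MRPS18C is grouped here as having a bacterial homologue. They parted in this line: MRPS18B rose, MRPS18A fell and MRPS18C was at -0.01 ± 0.36, not past the test. In Hep3B none of the 3 passed, with log2 fold changes of 0.35, -0.94 and -0.33 in the same order. MRPS30 was at -0.07 ± 0.31 in Hep3B and 0.25 ± 0.31 in Huh7, and MRPS36 at -0.08 ± 0.34 and -0.81 ± 0.35 (adjusted p = 0.122), neither past the test.

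**Figure D4:**
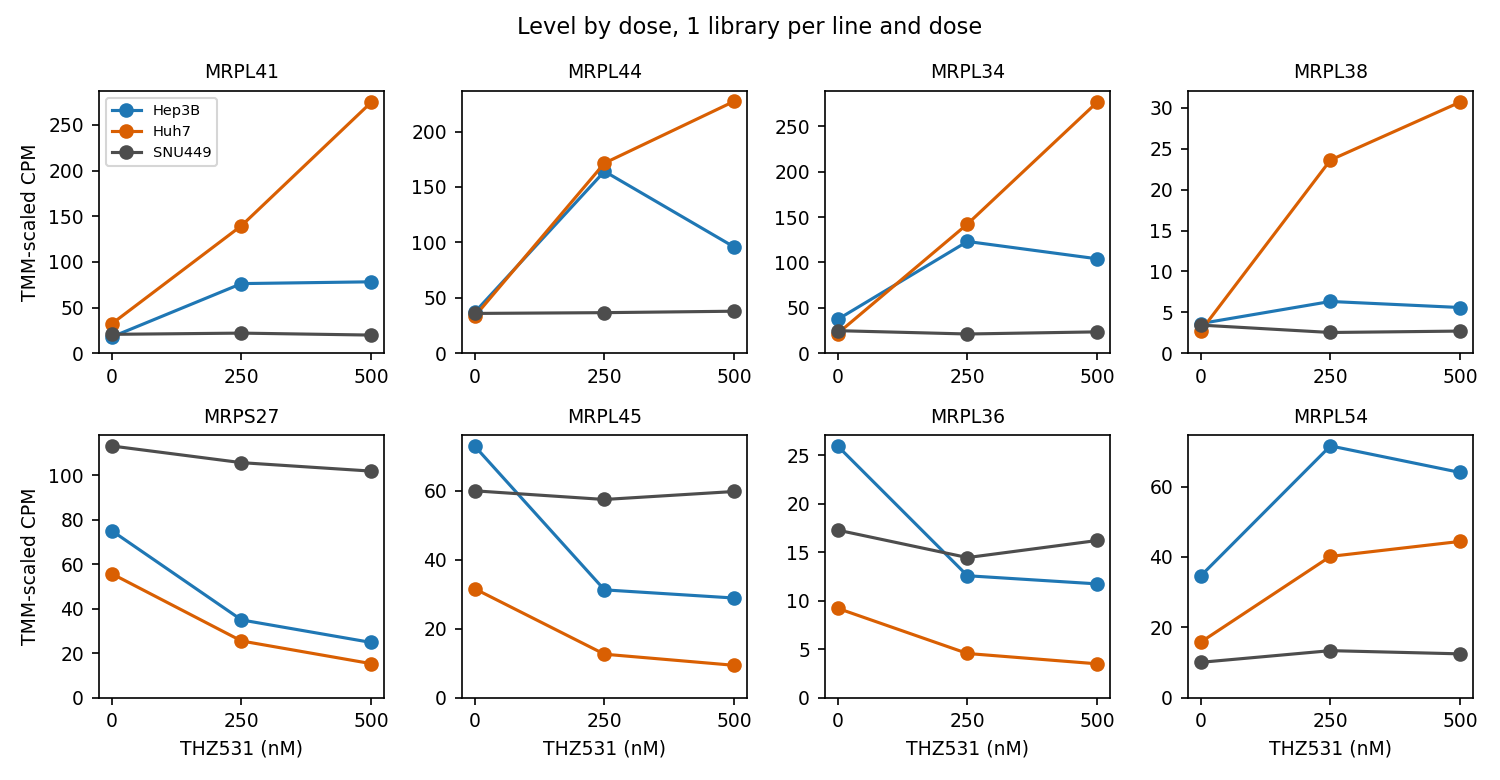
Level (TMM-scaled CPM, y axis from 0) by THZ531 dose (nM, x axis) for 8 named genes, 1 point per library joined within a line, with no replicate and no error bar. Against control, MRPL41, MRPL44, MRPL34 and MRPL54 are higher and MRPS27, MRPL45 and MRPL36 lower at both doses in Hep3B and Huh7. In Hep3B MRPL44, MRPL34 and MRPL54 are lower at 500 than at 250 nM. MRPL38 climbs in Huh7, and the SNU449 lines are nearly flat.

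By structural group, the large subunit proteins specific to mitochondria held most of the rises. In Hep3B 4 of 21 rose and 1 fell, and in Huh7 5 rose and 2 fell, with medians of -0.07 and 0.25. Of all tested genes 9.82% rose and 6.72% fell in Hep3B, and 13.3% rose and 6.03% fell in Huh7. Of the 29 large subunit proteins with a bacterial homologue 2 rose and 1 fell in each line, with medians of -0.20 and -0.21. Of the 15 small subunit proteins with a bacterial homologue none passed in Hep3B and MRPS16 fell in Huh7. Of the 10 specific to the small subunit MRPS27 fell in both lines, and 2 rose in Huh7. MRPS18A among the Huh7 falls and MRPS18B among the Huh7 rises are counted as specific to mitochondria, though both descend from the S18 gene. Differences between these groups were not tested, since the members were chosen with results known.

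Taken over the 3 lines, few of the genes passed. For both doses averaged against control 1 of 76 rose and 2 fell in the edgeR test, where 3.46% of all genes rose, 1.72% fell and 5.17% passed in all. MRPL54 rose by 0.90 ± 0.24 (SE, n = 3 lines, adjusted p = 0.0445, higher in 6 of 6 treated libraries). MRPS27 fell by 1.01 ± 0.26 (adjusted p = 0.0393, lower in 6 of 6) and MRPL45 by 0.97 ± 0.26 (adjusted p = 0.0468, lower in 6 of 6). In SNU449 the log2 ratios at 250 and 500 nM were -0.061 and -0.005 for MRPL45, close to no change. They were -0.099 and -0.151 for MRPS27 and 0.406 and 0.306 for MRPL54. At 500 nM MRPS27 was the 1 gene past the threshold (adjusted p = 0.0463), where 3.45% of all genes rose, 0.724% fell and 4.17% passed in all. At 250 nM 0 passed in edgeR or DESeq2 and 16 had an unadjusted p under 0.05, as had 17.6% of all genes, where at the adjusted threshold 1.06% of all genes rose, 0.155% fell and 1.21% passed in all. The largest log2 fold changes over both doses, MRPL41 at 1.50 ± 0.43 (adjusted p = 0.0575) and MRPL44 at 1.38 ± 0.41 (adjusted p = 0.0637), did not pass. Further values named by rule and not past the test were MRPL53 at -1.33 ± 0.51, MRPL12 (the homologue of the bacterial stalk protein L7/L12) at -0.68 ± 0.25, MRPS6 at -0.56 ± 0.23, MRPS26 at -0.45 ± 0.20, MRPS12 at 0.42 ± 0.25 and MRPS2 at 0.46 ± 0.21. Under total counts 2 genes were higher and 15 lower over both doses, and 1 higher and 11 lower at 500 nM. What share of all genes passed over both doses under this scaling was not determined.

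The 3 calls over both doses did not stay when Hep3B or Huh7 was left out. Without Hep3B 0 of 76 passed, without Huh7 0, and without the Huh7 library at 500 nM 0. These fits have fewer libraries, and the share of all genes that passed over both doses in them was not determined. A count of 0 therefore does not show on which line a call rests. Without SNU449, in the 6 libraries of Hep3B and Huh7, 13 rose and 18 fell over both doses, where 21.7% of the 15191 genes tested rose and 19.7% fell. The share of the genes that passed, 31 of 76, is near the background of 41.4%. At 500 nM 13 rose and 16 fell (background 22.7% and 18.9%, 41.6% in all), and at 250 nM 10 rose and 10 fell (background 15.6% and 10.2%, 25.7% in all). In this fit 7 of the 21 large subunit proteins specific to mitochondria rose and 4 fell, and of the 29 with a bacterial homologue 3 rose and 7 fell. Of the 15 small subunit proteins with a bacterial homologue 1 rose and 5 fell, and of the 10 others 2 rose and 2 fell. The falls beyond those already named were smaller, from -0.59 for MRPL49 to -0.96 for MRPL12, apart from MRPL53 at -1.87 ± 0.59 (adjusted p = 0.0163). MRPL53 rested on 64, 14 and 5 counts in Hep3B and 17, 3 and 0 in Huh7, so that its fitted size depends on the prior count. It shares 608 of its 1344 exonic bases with CCDC142 on the same strand.

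The 2 doses did not differ past the threshold for any of the genes. For 500 against 250 nM 0 of 76 passed in edgeR or DESeq2 and 1 had an unadjusted p under 0.05, where 0% of all genes passed and 2.19% had an unadjusted p under 0.05. The median log2 fold change was 0.06, and values ran from -1.19 for MRPL53 (unadjusted p = 0.100 by edgeR) to 0.76 for MRPL57 (unadjusted p = 0.0278 by edgeR), the 1 gene under 0.05, named after its value was seen. The median ratios of single libraries were -0.33 and -0.17 at 250 and 500 nM in Hep3B, -0.15 and -0.13 in Huh7, with SNU449 at -0.03 and 0.03. The spread was widest in Huh7 at 500 nM, where 13 genes were at least 2-fold higher and 16 at least 2-fold lower than in the control. Of all tested genes 24% were at least 2-fold higher and 19.3% at least 2-fold lower in that library, so these counts are near or below the background. In SNU449 none of the 76 reached 2-fold in either library, where 0.756% of all genes were higher and 0.73% lower at 250 nM and 0.956% and 1.08% at 500 nM.

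The response differed between lines for a few of the genes. The F test that the 3 responses are equal passed for MRPL38 (adjusted p = 0.0258) and MRPL34 (adjusted p = 0.0395), 2 of 76, where 1.14% of all genes passed. For Huh7 minus SNU449 4 of 76 were higher, and 0 lower, where 1.54% of all genes were higher, 0.0452% lower and 1.58% in all. They were MRPL38, MRPL34, MRPL41 and MRPL44. For Hep3B minus SNU449 0 of the 76 passed in edgeR, where 0.342% of all genes did. At an unadjusted p under 0.05 stood 8 of the 76 and 2483 of all 15479 genes. Lines and, by the protocol, treatment times differ together here and cannot be told apart.

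The other genes of the same machinery, and the neighbouring ones of energy metabolism and cytoplasmic translation, were set beside them. Cytoplasmic ribosomal protein genes had 24 of 85 higher and 0 lower in Hep3B and 41 higher and 1 lower in Huh7, with medians of 1.10 and 1.27. Nuclear genes of the respiratory chain and the ATP synthase had 19 of 78 higher and 1 lower in Hep3B and 24 higher and 1 lower in Huh7, with medians of 0.78 and 0.74. The 13 mRNAs of the mitochondrial genome, which are the templates of the mitochondrial ribosome, had 10 higher in Hep3B and 12 in Huh7, with medians of 1.80 and 1.98, and none was lower. Beside these counts 9.82% of all tested genes rose and 6.72% fell in Hep3B, and 13.3% rose and 6.03% fell in Huh7. The mitochondrial ribosomal protein genes, with medians of -0.15 and -0.10, thus lay below all 3 groups and near the median of all genes in both lines. Differences between the gene groups were not tested. In each of the 4 treated libraries of Hep3B and Huh7 the order of the 4 medians was the same, and under total-count scaling the medians of the 3 other groups stayed above 0 and that of the mitochondrial ribosomal proteins below 0 in these 4 libraries.

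**Figure D5:**
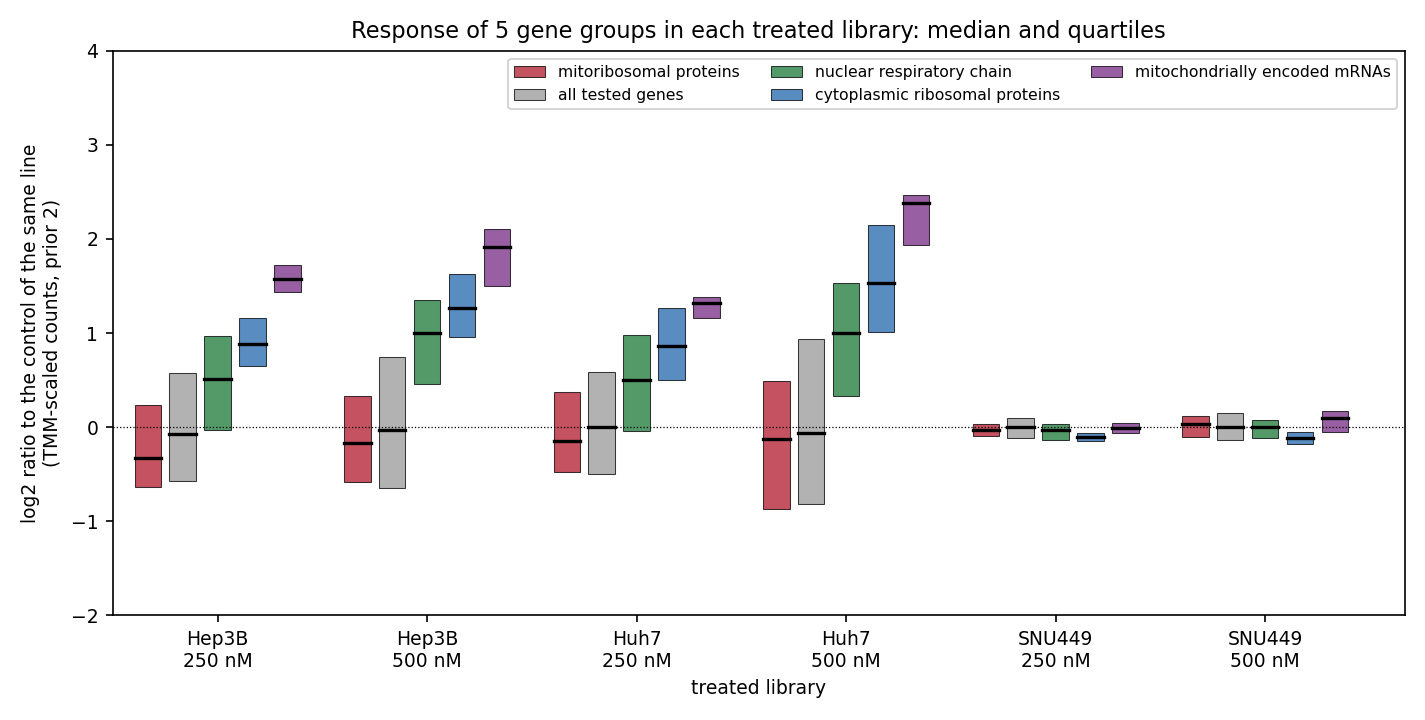
Log2 ratio of each treated library to the control of its line (y axis, TMM-scaled counts with a prior of 2) for 5 gene groups; the box spans the quartiles and the line is the median over genes. In Hep3B and Huh7 the mitochondrial ribosomal proteins have medians from -0.33 to -0.13 while the mitochondrially encoded mRNAs have medians from 1.32 to 2.39, and in SNU449 all medians lie between -0.12 and 0.09.

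Among the 12 mitochondrial translation factors 1 fell in Hep3B and none passed in Huh7. That gene was TACO1, the translational activator of COX1 (-1.38 ± 0.32, adjusted p = 0.0160). Beside this list and the next, 9.82% of all tested genes rose and 6.72% fell in Hep3B. In Huh7 13.3% rose and 6.03% fell. Of the 17 mitochondrial aminoacyl-tRNA synthetases VARS2, the enzyme for valine, rose in both lines (1.28 ± 0.33, adjusted p = 0.0220, and 1.83 ± 0.34, adjusted p = 0.00564) and EARS2, for glutamate, fell in both (-1.09 ± 0.31 and -1.13 ± 0.33). LARS2 and AARS2 fell in Hep3B and PARS2 in Huh7. VARS2 also passed over the 3 lines for both doses averaged, with 1.23 ± 0.25 (adjusted p = 0.0154, higher in 6 of 6 libraries).

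Of the 21 assembly factors of the mitochondrial ribosome 1 rose and 4 fell in Hep3B and 2 rose and 2 fell in Huh7. For this and the following lists the background was 9.82% of all tested genes higher and 6.72% lower in Hep3B. In Huh7 it was 13.3% higher and 6.03% lower. METTL15, which methylates the small subunit rRNA, fell in both lines (-1.45 ± 0.34, adjusted p = 0.0154, and -1.39 ± 0.35, adjusted p = 0.0193), as did the GTPase GTPBP10 (-1.59 ± 0.31 and -1.19 ± 0.33), which acts on the large subunit. MPV17L2 rose in both (1.04 ± 0.33 and 1.38 ± 0.34). MTG1 and TFB1M fell in Hep3B, and the helicase DDX28 rose in Huh7. Of the 10 genes of mitochondrial transcription and RNA care POLRMT, the mitochondrial RNA polymerase, rose in Huh7 (2.01 ± 0.40, adjusted p = 0.00728) and PNPT1 fell, and none passed in Hep3B. Of the 9 regulators of mitochondrial genes ESRRA fell in Hep3B and MYC rose in Huh7. Of 6 mitochondrial ribosome proteins with other symbols CHCHD1, of the small subunit, rose in Huh7 (1.14 ± 0.34, adjusted p = 0.0381). In SNU449 none of these genes passed.

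Sequence motifs were looked for around the transcription starts. Promoter windows from 250 bases before to 50 after the start (RefSeq, GRCh38.p14) were found for 68 of the 77 symbols. The letters AAGATGGC, the core of the YY1 motif, were looked for on both strands and occurred in windows of 21 of the 68 genes (30.9%), against 6.19% of 10461 tested genes with a window and 2.89% of all windows. The longer YY1 form, which contains the core, occurred in 14.7% of the genes and 2.20% of tested genes. CCGGAAGT, bound by ETS factors such as GABPA, occurred in 17.6% against 9.47%, the NRF1 motif in 13.2% against 12.7%, CCAAT in 33.8% against 43.3%, GGGGCGGGG in 26.5% against 32.8% and TATAAA in 4.41% against 8.79%. A match describes the letters and is not evidence of binding. The core holds ATG, the letters of a start codon.

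To show the shared core in genes that moved in opposite directions, the 30 bases around it are given for the 6 genes that passed in Hep3B or Huh7 and hold it on the gene's own strand with enough flanking sequence. Each lies just after the start on GRCh38.p14 and is written 5′ to 3′ on the strand named, with AAGATGGC in capitals. MRPL38, MRPL51 and MRPS18B rose, and MRPL45, MRPS18A and MRPS27 fell.
MRPL38, chr17:75904860-75904889, minus strand: aggccggagggAAGATGGCggcgccctggt
MRPL51, chr12:6493223-6493252, minus strand: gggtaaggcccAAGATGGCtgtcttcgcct
MRPS18B, chr6:30617852-30617881, plus strand: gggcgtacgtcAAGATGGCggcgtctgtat
MRPL45, chr17:38297170-38297199, plus strand: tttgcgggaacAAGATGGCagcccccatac
MRPS18A, chr6:43687764-43687793, minus strand: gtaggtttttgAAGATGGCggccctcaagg
MRPS27, chr5:72320206-72320235, minus strand: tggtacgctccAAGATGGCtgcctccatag

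The median response was alike with and without the core: -0.16 in Hep3B and -0.08 in Huh7 over the 20 tested genes with it, and -0.22 and -0.22 over the 47 without. Some other motifs had wider gaps in Huh7 between the medians with and without them. For the longer YY1 form these were 0.25 and -0.22, and for NRF1 -0.44 and -0.10. For GGGGCGGGG, and for TATAAA with only 3 genes, they were 0.14 and -0.22. In Hep3B the medians for these motifs lay between -0.22 and -0.17. None of these differences was tested. Upstream sequence is shown for 1 gene that rose and 1 that fell, taken as a run without an annotated GENCODE exon that ends at the base before the gene's start in the table. Capitals mark CCAAT and GGGGCGGGG on either strand in MRPL44, and the NRF1 motif in MRPL45.
MRPL44, chr2:223957213-223957403, plus strand: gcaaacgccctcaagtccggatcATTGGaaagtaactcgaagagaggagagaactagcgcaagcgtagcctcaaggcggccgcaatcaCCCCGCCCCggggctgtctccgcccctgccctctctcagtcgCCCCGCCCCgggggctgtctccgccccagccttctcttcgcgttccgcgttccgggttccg
MRPL45, chr17:38296918-38297022, plus strand: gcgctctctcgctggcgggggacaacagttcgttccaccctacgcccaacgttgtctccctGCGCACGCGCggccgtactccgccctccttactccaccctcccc
MRPL44, which rose, holds 2 GC boxes and 1 CCAAT box on the minus strand, and MRPL45, which fell, holds 1 NRF1 match. Over the 9 tested genes with an NRF1 match the responses ranged from -1.28 to 1.61 in Hep3B and from -1.50 to 3.26 in Huh7, so both directions occurred among them.

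The genes are short. Their median span was 11937 bases, against 33268.5 for protein-coding tested genes, and 20 of 76 (26.3%) spanned under 5000 bases, against 8.40%. Among protein-coding genes a longer span went with a lower response, with Spearman's rho = -0.24 in Hep3B and -0.35 in Huh7 over 13212 genes, and over the 76 genes rho was -0.19 and -0.20. In spans under 5000 bases, a limit chosen after the values were seen, the 20 ribosomal protein genes had medians of -0.13 in Hep3B and -0.22 in Huh7, while 1106 protein-coding genes of this length had medians of 0.79 and 0.97. From 5000 to 20000 bases they were -0.08 and 0.11 over 34 of the genes and 0.09 and 0.26 over 3576 protein-coding genes. At 20000 bases or more the medians were -0.38 and -0.25 over 22 of the genes and -0.24 and -0.29 over 8530 protein-coding genes. The short members thus lay lower than other short genes, a difference that was not tested.

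Of the 76 genes 34 share exonic bases with another gene, 10 on the same strand and 27 on the opposite strand. The libraries are labelled as stranded, but which strand was counted is not given in the sources used here, so reads of such pairs may not be told apart. Over the 42 genes with no exonic overlap 3 rose and 2 fell in Hep3B and 5 rose and 2 fell in Huh7, with medians of -0.13 and -0.16. Beside them 9.82% of all tested genes rose and 6.72% fell in Hep3B, and 13.3% rose and 6.03% fell in Huh7. MRPL41, MRPL44 and MRPL54 among the rises and MRPL45 and MRPL36 among the falls have no such overlap. MRPS27 shares 190 exonic bases with PTCD2 on the opposite strand, which had 148, 48 and 29 counts in Hep3B beside 1843, 415 and 227 of MRPS27.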

How the data were processed

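Gene-level read counts were analysed as deposited by the authors. Per the submitters' processing notes HISAT2, HTSeq and the human build GRCh38 were used, with versions and the strand setting of the counting not given in the sources used here. Libraries were grouped by dose and cell line from the labels, and all 9 columns were used.

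Counts were scaled with TMM factors and tested with edgeR 4.0.16 (limma 3.58.1, R 4.3.3) by the quasi-likelihood test with Benjamini-Hochberg adjustment over all 15479 genes that passed filterByExpr, at 0.05. The dose model had dose and cell line as terms (4 residual degrees of freedom), and the line model gave each line its own baseline and treated term (3 residual degrees of freedom). Same-numbered libraries are the same cell line, so the line was kept as a block. Their deviations from the dose means correlated at 0.797 to 0.961. Each dose mean averages 3 lines, so this correlation follows from the lines themselves and is no separate support for the block. Log2 ratios of single libraries used a prior count of 2. Levels per kilobase used exonic lengths from GENCODE. Total counts per library were 5701981 to 20657610. Share intervals are Clopper-Pearson at 95% and cover counting error only. The scripts were tested on simulated data.

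Genes were named by rule: in each of 4 structural groups the 2 highest and 2 lowest over both doses, up to 6 past the threshold per comparison, those whose symbol and place differ with the MRPS18 paralogues, the 3 highest and 3 lowest in control level per length, up to 3 per pathway list and up to 5 by the F test. Further genes past the threshold and MRPL11 were named after their values were seen. The genes and lists were chosen with earlier results of these data known. Alternatives were median-ratio and total-count scaling, DESeq2 1.42.0, no low-count filter, a prior of 0.5, each line or the shallowest library left out, no replicate block, and only the 6 libraries of a comparison.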

Additional observations from a re-analysis of the deposited data

Results flagged for a closer look

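The difference in response, Huh7 minus SNU449, passed the edgeR quasi-likelihood test with Benjamini-Hochberg adjustment in 4 genes. Each line enters with 1 control library and with its 2 doses taken as replicates of treatment, so the test does not cover the spread between control libraries of a line. The difference was 3.70 on the log2 scale for MRPL38 (adjusted p = 0.0189), 3.42 for MRPL34 (adjusted p = 0.0204), 2.67 for MRPL41 (adjusted p = 0.0402) and 2.53 for MRPL44 (adjusted p = 0.0412). In each of the 4 genes both treated Huh7 libraries were above their control by more than either SNU449 library was above its own. That follows from choosing the genes by this difference and is no separate support. The F test of equal responses in the 3 lines gave an adjusted p of 0.0258 for MRPL38 and 0.0395 for MRPL34. It called 0 of the 76 genes under median-ratio or total-count scaling and 4 in DESeq2. How many of all genes it called under these alternatives was not determined.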

How the results depend on the processing

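Over the 3 lines, the counts of genes past the threshold moved with nearly every choice, and the within-line counts with fewer. For 500 nM, 646 of all genes and 1 of the 76 passed; under total counts 2706 and 12, in DESeq2 1556 and 7, with no low-count filter 2906 and 8, with only the 6 libraries of the comparison 76 and 0, without the Huh7 library at 500 nM 30 and 0, and under median-ratio scaling 0 of the 76. Leaving out a line gave 4 to 6324 of all genes and 0 to 29 of the 76. For 250 nM, 188 and 0 passed; under median-ratio scaling 102 of all genes, under total counts 367, with no filter 1344 and 4, with only the 6 libraries 1, without the Huh7 library at 500 nM 92, and leaving out a line 0 to 3910 (15 without Huh7) and 0 to 20. For both doses, 3 of the 76 passed; under median-ratio scaling 1, under total counts 17, in DESeq2 7, with no filter 10, leaving out a line 0 to 31, and without the Huh7 library at 500 nM 0. With no replicate block, which drops the pairing by cell line, 0 of all genes passed at 500 nM and 0 at 250 nM, and 0 of the 76 passed for either dose or both. For both doses averaged, how many of all genes passed under the alternatives was not determined, apart from the fit without SNU449.

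Within Hep3B 9 passed, and 22 without the Huh7 library at 500 nM (8 higher, 14 lower). Within Huh7 14 passed, and 24 under total counts. The F test called 2, with 0 under median-ratio and total-count scaling and 4 in DESeq2, with no filter or without the Huh7 library at 500 nM. How many of all genes passed in these alternative fits, within a line or by the F test, was not determined. Under total counts the median of the 76 genes was -0.63 at 500 nM, -0.48 at 250 nM, -0.57 for both, -0.15 for 500 against 250 nM, -0.66 within Hep3B and -0.81 within Huh7. For single libraries it was -0.74 and -0.76 (Hep3B) and -0.64 and -1.07 (Huh7). The Huh7 median was -0.23 with no filter and -0.28 without the Huh7 library at 500 nM. The cause was not tested.

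Of the named genes, 3 near 0 over both doses changed sign. MRPS18C was at 0.007 without Hep3B. MRPS30 was at -0.35 under total counts, -0.022 with no filter, -0.023 without Huh7 and -0.035 without its library at 500 nM. MRPL46 was at -0.31 under total counts, -0.008 without Huh7 and -0.041 without that library. Of the other values of named genes 266 kept direction and side of the threshold, 35 passed newly and 31 no longer passed. In Hep3B MRPL34, MRPL33, MRPL44, MRPL54 and MRPL51 no longer passed under total counts, and in Huh7 MRPL33, MRPS34, MRPS18B, MRPL54 and MRPL51. With 1 library per line and dose, and 0 to 64 counts for MRPL53, low genes are the least certain.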

Other observations

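Of the 79 rows, 3 had too few counts to be tested. MRPS24, of the small subunit, had 1 to 10 counts in each library, and the second rows of MRPS17 and MRPL23 had 0 or 1. The table also lists 18 pseudogene rows of 15 of the symbols, none above 33 counts in a library, so the counts assigned to these copies were few.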
